A study of Trachemys scripta with 4 samples.

Results

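Mitochondria make a small set of respiratory chain proteins on ribosomes of their own. The proteins of these mitochondrial ribosomes, or mitoribosomes, are encoded in the nucleus, made in the cytosol and carried into the organelle, as are nearly all other mitochondrial proteins. They pass the outer membrane through the TOM complex and are then handed to the TIM complexes of the inner membrane or to small Tim chaperones between the membranes. Nerve fibres and their Schwann cells rely on mitochondria for energy and for lipid synthesis, and inherited defects of mitochondrial translation or import often affect the nervous system. The roles given below are known mainly from mammals and yeast and are stated as background.

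The genes described here were chosen by name from the gene table of peripheral nerves of *T. scripta*, the pond slider turtle. They comprise the mitoribosomal proteins of the large subunit (MRPL) and the small subunit (MRPS), the TOMM and TIMM genes, the elongation factors TUFM, TSFM, GFM1 and GFM2, and the initiation factors MTIF2 and MTIF3. Of 15289 genes in the table, 100 fit this choice, with 45 MRPL, 28 MRPS, 10 TOMM, 11 TIMM and 6 factor genes. All 100 were found in the RefSeq gene table of the assembly CAS_Tse_1.0, and all passed the filter on low values, which asked for at least 1 TPM (the level per gene length, scaled so that all genes of a column sum to the same total) in at least 2 columns and left 15100 genes. The genes are short, with a median exon length of 1140.5 nt, against 3118.5 nt over all genes analysed.

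The RNA came from parts of the brachial and sacral plexus of embryos at stage 21 (st.21) and at stage 19 (st.19), from eggs of wild-caught females given oxytocin to make them lay, and incubated at the same temperature. The labels name no treatment that differs between the stages. Each stage is represented by 1 sample with 2 columns, R1 and R2, whose recovered reads differed by less than sampling noise. The chi-square statistic was 0.1911 per gene at st.21 and 0.3976 at st.19 over 99 of the genes, where independent sampling would give 1, so the columns were counted as 1 sample. What the columns of a stage are is not stated beyond a replicate number, and the suffixes of their names would also fit the 2 reads of 1 paired library. Agreement of both columns, or leaving out 1 of them, is therefore no check against a separate embryo. No p-value can therefore be given for any difference between the stages, and stage, embryo and library cannot be told apart. The plexus pieces were pooled because single nerves were too small, and a bulk sample cannot tell fewer cells of a type from less RNA per cell.

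Depth was 2229177 and 2129599 reads on genes in the st.21 columns and 4353821 and 4241655 reads in the st.19 columns. An rRNA gene (LOC117869916) held 0.145 and 0.317% of all TPM at st.21 and 18.9 and 44.2% at st.19, and within st.19 the median gene stood 0.53 (log2) higher in R1 than in R2. Every TPM value of st.19 moves with this share. Changes are therefore given mainly relative to the median gene, which no rescaling of a whole column alters, and the deposited scale itself placed the median gene 0.06 higher at st.21. The 10 Schwann cell markers (2 above a log2 fold change of 1, none below −1) summed to 5107 and 5036 TPM at st.21 and 2669 and 1819 TPM at st.19. Markers of surrounding tissue also differed, with 9 of 12 listed skeletal muscle genes in the table, summing to 2809 and 2781 TPM at st.21 against 92.9 and 60.0 TPM at st.19. All 9 were above a log2 fold change of 1, against 17.3% of all genes analysed, with 9.68% of all genes below −1. Fibroblast and perineurium markers (6 of 6 in the table, 3 above 1) summed to 22550 and 22220 TPM at st.21 and 4791 and 3249 TPM at st.19, and neuronal markers (10 of 11, 5 below −1) to 4834 and 4918 TPM at st.21 and 7711 and 5320 TPM at st.19. Of the blood and immune markers 4 of 5 were in the table and summed to 89.2 and 88.1 TPM at st.21 against 18.3 and 13.0 TPM at st.19, with SPI1 at 0 reads at st.19. Of the erythroid markers 2 of 5 were in the table, at 28.1 and 25.3 TPM at st.21 against 6.46 and 4.99 TPM at st.19. These markers differed between the same samples as every gene below, and their part in the results was not tested. The marker sums are on the deposited scale, so their st.19 values also move with the rRNA share.

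As a group, the mitoribosome and import genes were moderately higher at st.21 relative to the median gene, with wide differences between members. Their median log2 fold change (mean log2 TPM at st.21 minus mean log2 TPM at st.19) was 0.40, which is 0.34 above the median gene. Of the 100 genes, 64 were above the median gene and 36 below it. Relative to the median gene, 15 genes were above a log2 change of 1, against 15.8% of all genes analysed, and 2 were below −1 (TIMM9 and TOMM20L), against 10.7%. The value of TOMM20L rests on 0 and 1 reads at st.21 and sets no direction. On the deposited scale, 18 were above 1, against 17.3% of all genes, and 2 were below −1, against 9.68%. The share of large increases was thus near the background, and large decreases were few. The changes were also less spread than those of all genes, with an SD over genes of 0.66 against 0.99. Short genes in general were also higher at st.21. Of the 40 genes of up to 1000 nt, 27 were above the median gene, against 736 of 1057 other genes that short. Their median log2 fold change was 0.42, against 0.57 for the others. Over 1000 to 1500 nt, 24 of 31 were above the median gene, against 759 of 1226 others, with medians of 0.58 and 0.36. Longer classes went both ways and are given with exon length below. The part of length in the group difference was not tested.

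A 95% interval for counting error alone was computed for each gene from its R1 reads, relative to the median gene of the R1 columns. It lay wholly above the median gene for 42 of the 100 genes, against 28.3% of all genes, and wholly below it for 11, against 24.3%. For the other 47 genes the interval spanned the median gene. Among genes of up to 1000 nt, the interval lay above the median gene for 16 of 40, against 440 of 1057 other genes that short. Over 1000 to 1500 nt it did so for 18 of 31 genes, against 411 of 1226 others. On the deposited scale, both st.21 values lay above both st.19 values for 51 genes, against 38.9% of all genes, and below them for 16, against 31.9%. Leaving out R1 or R2 of st.19 gave 28 or 6 genes above 1 on the deposited scale, while the median relative to the median gene stayed at 0.34 or 0.35. These counts move with the scale of st.19. No share of all genes is given beside them, so they are not a result about the 100 genes.

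**Figure D1:**
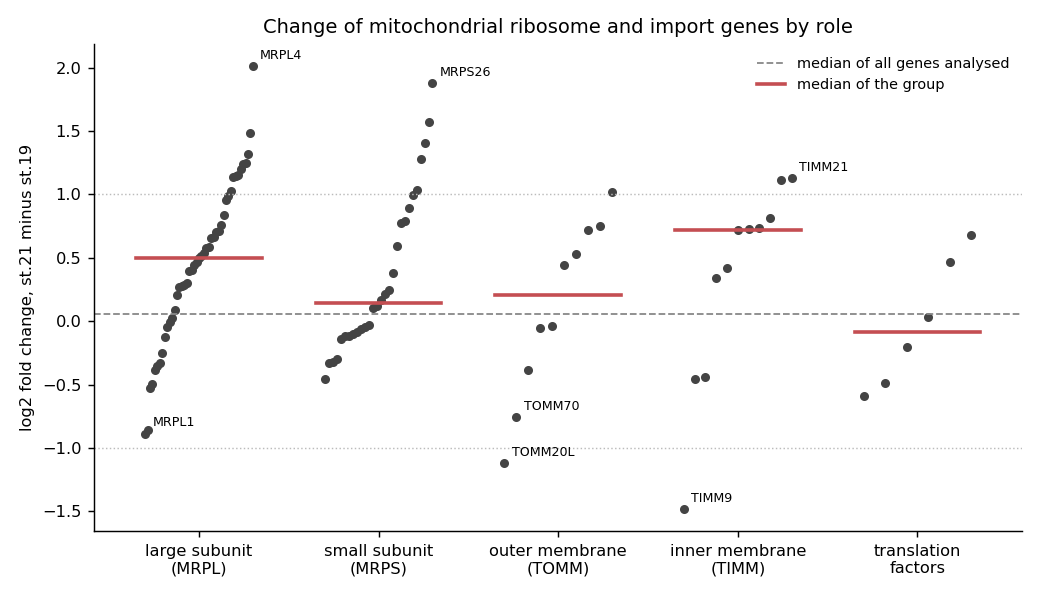
Log2 fold change (st.21 minus st.19, deposited scale) of each of the 100 genes, 1 point per gene, in 5 groups by role and ordered by value within a group. Red bars mark the group medians (0.50, 0.14, 0.21, 0.72 and −0.08 from left to right), the dashed line marks the median of all genes analysed (0.06) and dotted lines mark 1 and −1. TIMM9 and TOMM20L lie below −1, the value of TOMM20L resting on 0 and 1 reads at st.21.

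The summed level of the 100 genes hardly differed between the stages. Together they held 0.822 and 0.821% of the TPM of protein-coding genes at st.21 and 0.799 and 0.804% at st.19. The large subunit held 0.421 and 0.420% at st.21 and 0.371 and 0.376% at st.19. The small subunit held 0.1961 and 0.1988% at st.21 and 0.2006 and 0.1994% at st.19, so it held slightly less at st.21. The other groups also held less at st.21. The TOMM genes held 0.126 and 0.126% at st.21 and 0.136 and 0.142% at st.19, and the TIMM genes 0.0461 and 0.0447% at st.21 and 0.0506 and 0.0498% at st.19. The factors held 0.0333 and 0.0313% at st.21 and 0.0405 and 0.0374% at st.19. On the scale of this total the median log2 fold change was −0.47 over all genes analysed and −0.12 over the 100 genes.

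Set beside 3 other gene groups on the deposited scale, the median of 0.40 was the lowest. Over all genes analysed, 17.3% were above 1 and 9.68% below −1. Of 68 cytosolic ribosomal proteins, which build the ribosomes outside mitochondria, 36 were above 1 and none was below −1, with a median of 1.08. They held 9.49 and 9.75% of protein-coding TPM at st.21 and 5.90 and 6.04% at st.19. The nuclear respiratory chain list held 53 genes named NDUF, SDH or ATP5 and no UQCR or COX gene, so it covers only some of the complexes. Of these 53 genes, 14 were above 1, with a median of 0.60. Their shares were 1.48 and 1.48% at st.21 and 1.27 and 1.27% at st.19. Of the 13 protein genes of the mitochondrial DNA itself, which mitoribosomes translate, 10 were above 1 and 12 above 0, with a median of 1.23. Their shares were 9.12 and 9.43% at st.21 and 6.15 and 6.36% at st.19. ND6 went the other way, with 3914 and 4218 TPM at st.21 against 7297 and 5482 TPM at st.19. Its relative change was −0.70 (−0.77 to −0.62). The difference between these lists and the mitoribosome and import genes was not tested. Under quantile normalization the order differed, with a median of 0.16 for the 100 genes and 0.18, 0.16 and 0.08 for the 3 lists in the order given. That method gives every column the same set of values, so genes near the top at both stages can change little. The cytosolic ribosomal proteins (median 1196 TPM at st.21 and 560 TPM at st.19) and mitochondrially encoded genes (4644 and 2282 TPM) lie there. It therefore cannot check the order.

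**Figure D2:**
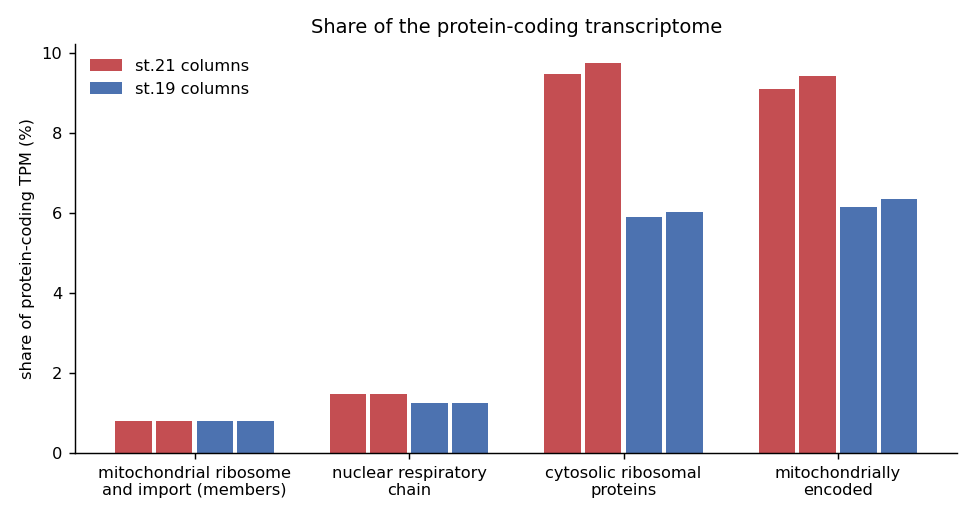
Share of the TPM of all protein-coding genes (percent, axis from 0) held by 4 gene groups, 1 bar per column, with st.21 in red and st.19 in blue. The mitochondrial ribosome and import genes stay near 0.8% in all 4 columns, while the cytosolic ribosomal proteins are at 9.49 and 9.75% at st.21 and 5.90 and 6.04% at st.19.

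The large subunit joins amino acids into protein and carries the exit tunnel. The median log2 fold change of its 45 genes was 0.50, or 0.44 relative to the median gene. Of them 10 were above 1 and none below −1, against 17.3 and 9.68% of all genes. The counting interval lay above the median gene for 21 genes and below it for 4, against 28.3 and 24.3% of all genes. The 45 genes had a median level of 56.2 TPM at st.21 and 45.1 TPM at st.19. Genes whose protein has a bacterial counterpart (28, median 0.45) and genes found only in mitochondrial ribosomes (17, median 0.53) had similar medians, a grouping made from general knowledge after the values were seen.

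MRPL4, a protein of the exit tunnel wall in the bacterial ribosome, had the largest fold change of the 100 genes on the deposited scale (2.01, against 1.88 for MRPS26). After quantile normalization MRPS26 was the larger of the pair (1.68, against 1.57 for MRPL4), and their counting intervals overlapped. MRPL4 lies on chromosome 16 (14709082 to 14725428) and had 296 and 292 TPM at st.21 against 90.9 and 58.5 TPM at st.19. Both st.21 values were above both st.19 values, and the change relative to the median gene was 1.92 (95% interval 1.67 to 2.17, from 345 reads at st.21 R1). Among the 100 genes MRPL4 ranked 1 by level at st.21 and 18 at st.19. Next to it in the order at st.21 stood the pore gene TOMM40 and MRPL12, whose column values (274 to 290 TPM and 262 to 290 TPM) overlapped.

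MRPL24, on chromosome 24, had 169 and 169 TPM at st.21 against 73.2 and 49.7 TPM at st.19, a relative change of 1.42 (1.14 to 1.70). It belongs to the proteins that bind ribosomal RNA early in assembly in bacteria. MRPL23, which sits at the tunnel exit, had 136 and 143 TPM at st.21 against 69.8 and 45.1 TPM at st.19, a relative change of 1.19 (0.77 to 1.62). MRPL11, part of the stalk base where elongation factors bind, had 178 and 175 TPM at st.21 against 90.4 and 60.7 TPM at st.19, with a relative change of 1.19 (0.88 to 1.50). In all 3 genes both st.21 values were above both st.19 values. MRPL12, the stalk protein and the highest of the large subunit over both stages, also binds the mitochondrial RNA polymerase in human cells. It had 262 and 290 TPM at st.21 against 150 and 105 TPM at st.19, with a relative change of 1.02 (0.76 to 1.28).

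At the low end of the large subunit stood MRPL1, whose bacterial counterpart lies where tRNA leaves the ribosome. It had 13.2 and 13.2 TPM at st.21 against 29.5 and 20.1 TPM at st.19, a relative change of −0.99 (−1.65 to −0.38). MRPL19, at the interface of the subunits in bacteria, had 20.5 and 21.2 TPM at st.21 against 44.9 and 31.9 TPM at st.19, with a relative change of −0.97 (−1.77 to −0.25). MRPL3, a protein near the peptidyl transferase centre, had 39.0 and 41.1 TPM at st.21 against 68.8 and 48.4 TPM at st.19, a relative change of −0.63 (−1.06 to −0.21). For these 3 genes both st.21 values were below both st.19 values. MRPL22, at the tunnel wall and exit, had 25.3 and 23.1 TPM at st.21 against 39.5 and 29.2 TPM at st.19, and its interval spanned the median gene (−1.38 to 0.35). The highest large subunit gene at st.19 was MRPL9, with 154 and 107 TPM there and 174 and 174 TPM at st.21. MRPL55 was the lowest at both stages, with 10.6 and 10.1 TPM at st.21 and 14.0 and 9.20 TPM at st.19.

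The small subunit binds the messenger RNA and reads its codons. The median log2 fold change of its 28 genes was 0.14, or 0.08 relative to the median gene. Of them 5 were above 1 and none below −1, against 17.3 and 9.68% of all genes. The genes were grouped by name, and 3 of them stand elsewhere in mammals, MRPS18A and MRPS30 in the large subunit and MRPS36 in a metabolic enzyme complex. Without these, the other 25 genes had a median of 0.11, with 4 above 1. Over all 28, the interval lay above the median gene for 9 genes and below it for 1 (MRPS31), against 28.3 and 24.3% of all genes. The 28 genes had a median level of 48.4 TPM at st.21 and 46.9 TPM at st.19. Above 0 were 16 of the 28 genes, against 53.1% of all genes. Of the 25 genes, the 15 with a bacterial counterpart had a median of 0.24 and the 10 found only in mitochondria a median of −0.05, by the same later grouping.

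MRPS26, a protein with no bacterial counterpart, had 92.5 and 93.5 TPM at st.21 against 31.1 and 20.5 TPM at st.19, with a relative change of 1.83 (1.30 to 2.37). It ranked 29 among the 100 genes at st.21 and 81 at st.19. MRPS24, which lies where messenger RNA enters, had 106 and 103 TPM at st.21 against 40.9 and 30.0 TPM at st.19, with a relative change of 1.60 (1.19 to 2.03). MRPS21 had 118 and 114 TPM at st.21 against 65.3 and 29.3 TPM at st.19, and its relative change was 1.08 (0.60 to 1.56). In these 3 genes the columns of the stages did not overlap. MRPS15, the highest of the small subunit at both stages, had 160 and 166 TPM at st.21 and 94.9 and 70.6 TPM at st.19, with a relative change of 0.97 (0.58 to 1.36).

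The lowest fold changes of the small subunit lay below the median gene, though most of their intervals spanned it. MRPS10 had 22.1 and 23.8 TPM at st.21 against 37.4 and 26.5 TPM at st.19, and its interval spanned the median gene (−1.32 to 0.10). Both st.21 values of MRPS10 were below both st.19 values. MRPS31 had 26.4 and 31.2 TPM at st.21 against 44.0 and 29.1 TPM at st.19, with a relative change of −0.55 (−1.03 to −0.08), although its columns overlapped between the stages on the deposited scale. The intervals of MRPS22 (−0.76 to 0.22) and MRPS17 (−0.88 to 0.24) spanned the median gene. Both st.21 values of MRPS22 were below both st.19 values, and the columns of MRPS17 overlapped. MRPS22 is a gene in which human mutations cause mitochondrial disease. MRPS35 was the lowest of the subunit at both stages, with 13.9 and 12.9 TPM at st.21 and 15.8 and 12.4 TPM at st.19.

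The MRPS18 genes encode 3 related proteins that occupy different places in the mitoribosome. MRPS18A, which in mammals sits in the large subunit despite its name, had 137 and 139 TPM at st.21 against 80.9 and 56.0 TPM at st.19, with a relative change of 0.98 (0.66 to 1.30). MRPS18B, on an unplaced scaffold, had 109 and 121 TPM at st.21 against 57.1 and 39.4 TPM at st.19, with a relative change of 1.15 (0.79 to 1.51). MRPS18C, the form most like the bacterial protein, had 22.0 and 22.8 TPM at st.21 against 29.2 and 19.8 TPM at st.19, and with an interval from −1.44 to 0.85 a difference was not detectable at this depth. The intervals of MRPS18A and MRPS18B overlapped each other and that of MRPS18C, so an order of their changes is not given.

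**Figure D3:**
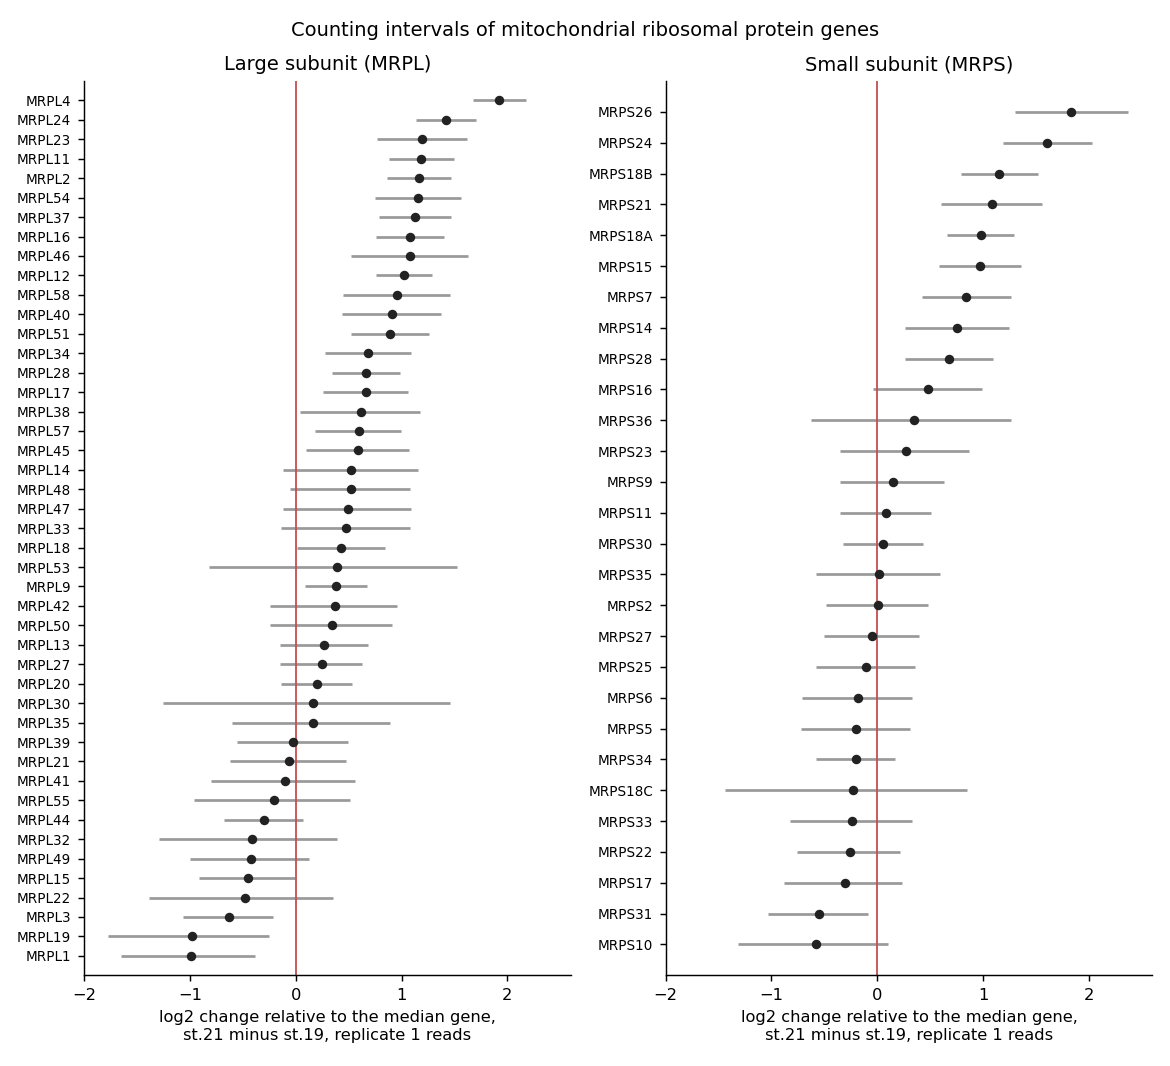
Log2 change relative to the median gene (st.21 minus st.19) of the 45 large subunit genes (left) and 28 small subunit genes (right), from the R1 reads of each stage. Points are the estimates and bars the exact 95% intervals for counting error only. The red line at 0 is the median gene, with 21 large and 9 small subunit intervals above it and 4 and 1 below it. Over all genes analysed, 28.3% of intervals lay above it and 24.3% below it.

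The TOM complex of the outer membrane is the entry gate for almost all imported proteins. The median log2 fold change of the 10 TOMM genes was 0.21, or 0.14 relative to the median gene (−0.09 after quantile normalization). Of them 1 was above 1 and 1 below −1 (TOMM20L, described last), against 17.3 and 9.68% of all genes. The interval lay above the median gene for 5 and below it for 2, against 28.3 and 24.3% of all genes. The median level of the TOMM genes, 104 TPM at st.21 and 93.8 TPM at st.19, was the highest of the 5 groups. The pore and its small subunits (4 genes) had a median of 0.63 and the receptors (3 genes) a median of −0.04, which was not tested. The genes of the 2 sets interleaved, with the receptor TOMM22 at 0.45 and the small subunit TOMM6 at −0.05. This finer split was not part of the planned grouping by role.

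TOMM40, the pore itself, had 274 and 290 TPM at st.21 against 180 and 155 TPM at st.19, with a relative change of 0.81 (0.59 to 1.03). It ranked 2 by level among the 100 genes at st.21 and 1 at st.19. Among the small subunits that steady the pore, TOMM5 had 178 and 166 TPM at st.21 against 124 and 87.2 TPM at st.19, a relative change of 0.73 (0.40 to 1.05). TOMM7 had 144 and 154 TPM at st.21 against 119 and 89.4 TPM at st.19, with an interval that began at the median gene (0.00 to 0.97). TOMM6 had 72.8 and 77.3 TPM at st.21 and 94.0 and 64.6 TPM at st.19, and its columns overlapped. TOMM40, TOMM5 and TOMM7 thus had both st.21 values above both st.19 values, and TOMM6 did not.

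The receptors that recognise incoming proteins went apart. TOMM22, the central receptor that also organises the complex, had 172 and 169 TPM at st.21 against 151 and 104 TPM at st.19, with a relative change of 0.39 (0.12 to 0.66). TOMM20, which binds presequences, had 120 and 121 TPM at st.21 and 150 and 101 TPM at st.19, and its interval spanned the median gene (−0.47 to 0.21). TOMM70, the receptor for carrier proteins, was lower at st.21. It had 49.0 and 48.4 TPM at st.21 against 99.1 and 68.2 TPM at st.19, from 247 and 235 reads at st.21 and 1037 and 981 reads at st.19. Its relative change of −0.82 (−1.02 to −0.62) did not overlap the intervals of TOMM20 or TOMM22, as far as counting error goes. TOMM70 also has the longest exon length of the 100 genes, 5538 nt.

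Among the remaining TOMM genes, TOMM34, a cytosolic cofactor, had 28.7 and 29.2 TPM at st.21 against 46.0 and 31.0 TPM at st.19, with a relative change of −0.49 (−0.97 to −0.04). TOMM40L, a paralog of the pore, had 96.1 and 78.4 TPM at st.21 against 58.4 and 31.5 TPM at st.19, with a relative change of 0.93 (0.63 to 1.23). TOMM20L, a paralog of TOMM20, was near the limit of detection, with 0 and 1 reads at st.21 and 6 and 6 reads at st.19. Its fold change on the deposited scale (−1.12) rests on the prior count, the small number of reads added to every gene before the logarithm. Against 3 reads per library the bound was 0.31, so no direction can be given, and with TOMM20L at that bound the median of the TOMM genes was 0.38 and that of all 100 genes stayed at 0.40.

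**Figure D4:**
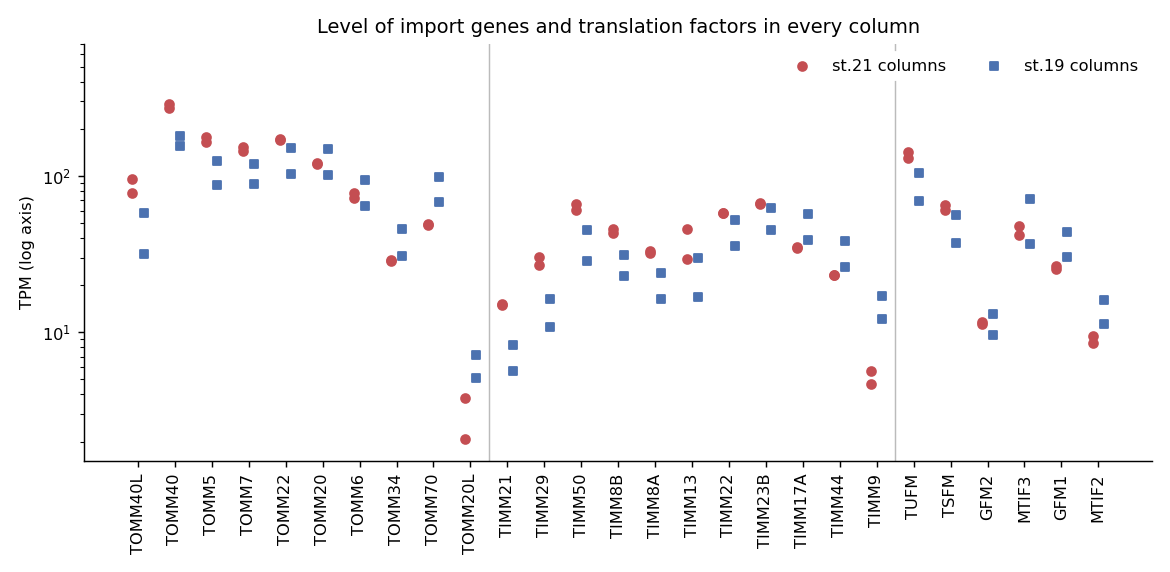
TPM (log axis) of the 10 TOMM genes, 11 TIMM genes and 6 translation factors in every column, with st.21 as red circles and st.19 as blue squares, ordered within each group from the highest to the lowest fold change. TOMM40 is the highest TOMM gene and TUFM the highest factor, and TOMM70 and TIMM9 have both st.21 values below both st.19 values.

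The TIM complexes work in the inner membrane, where TIM23 takes proteins with a presequence and TIM22 inserts carrier proteins. The median log2 fold change of the 11 TIMM genes was 0.72, or 0.66 relative to the median gene. Of them 2 were above 1 and 1 below −1, against 17.3 and 9.68% of all genes. The interval lay above the median gene for 5 and below it for 3, against 28.3 and 24.3% of all genes. The TIMM median is sensitive to single columns, since it was 0.35 relative to the median gene without R1 of st.21 and 0.51 without R2 of st.19. The median level was 34.8 TPM at st.21 and 27.0 TPM at st.19.

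Of the presequence translocase, TIMM50, the receptor that meets proteins leaving the TOM pore, had 60.3 and 65.9 TPM at st.21 against 44.8 and 28.6 TPM at st.19, with a relative change of 0.64 (0.20 to 1.08). TIMM21, which links the translocase to TOM and to the respiratory chain, had 15.1 and 14.9 TPM at st.21 against 8.24 and 5.69 TPM at st.19, with a relative change of 1.18 (0.19 to 2.16). Both genes had st.21 values above both st.19 values. TIMM44, which tethers the motor chaperone on the matrix side, had 23.2 and 23.2 TPM at st.21 against 38.5 and 26.3 TPM at st.19, with a relative change of −0.54 (−1.01 to −0.09). TIMM17A, a channel subunit, had 35.1 and 34.6 TPM at st.21 against 57.4 and 38.8 TPM at st.19, with a relative change of −0.51 (−0.85 to −0.19). Both of these genes were lower in both st.21 columns. TIMM23B, named after the channel protein TIMM23, had 66.4 and 67.1 TPM at st.21 and 62.1 and 44.8 TPM at st.19, and its interval spanned the median gene (−0.12 to 0.72). Its span overlaps NCOA4 and PARG, and its reads may be shared with near-identical copies.

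Of the 6 genes of the carrier translocase and the small chaperones, 3 had an interval above the median gene (TIMM29, TIMM8A and TIMM8B), 2 had one that spanned it (TIMM22 and TIMM13) and 1 had one below it (TIMM9). TIMM29, which stabilises the TIM22 complex in human cells, had 30.1 and 27.1 TPM at st.21 against 16.3 and 10.8 TPM at st.19, with a relative change of 1.16 (0.37 to 1.94). TIMM22, its channel, had 58.2 and 57.6 TPM at st.21 and 52.5 and 35.7 TPM at st.19, with an interval from −0.10 to 0.80. TIMM8A, mutated in a human deafness and dystonia syndrome, had 32.1 and 33.3 TPM at st.21 against 23.9 and 16.3 TPM at st.19, with a relative change of 0.64 (0.11 to 1.16). TIMM8B, its paralog, had 45.6 and 43.2 TPM at st.21 against 31.1 and 22.9 TPM at st.19, with a relative change of 0.78 (0.25 to 1.29). TIMM13, the partner of TIMM8A, had 45.9 and 29.5 TPM at st.21 and 29.9 and 16.7 TPM at st.19. These columns overlapped, and with 12 and 7 reads at st.21 the interval was wide (−0.30 to 2.13). TIMM13 (chromosome 3, 77896463 to 77896777, exon length 315 nt) overlaps GALNT2, so its reads may not be assignable to either. Its fold change on the deposited scale (0.72) is also the median of the TIMM genes.

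TIMM9, a chaperone that escorts carrier proteins between the membranes, had 4.70 and 5.62 TPM at st.21 against 17.1 and 12.1 TPM at st.19, with 5 and 6 reads at st.21 and 44 and 43 reads at st.19. Its relative change was −1.88 (−3.58 to −0.55), and it stood below the small chaperones TIMM8A and TIMM8B without overlap of the intervals. TIMM9 (chromosome 4, 12386301 to 12398163) and TOMM20L (12376870 to 12386355) overlap at their ends, so reads there may not be assignable to either. Besides TOMM20L, whose direction is not settled by its reads, TIMM9 was the only gene of the 100 below −1 on the deposited scale.

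The translation factors had no gene above 1 or below −1, against 17.3 and 9.68% of all genes. The median log2 fold change of the 6 factors was −0.08, or −0.14 relative to the median gene. The interval lay above the median gene for 2 and below it for 1, against 28.3 and 24.3% of all genes. TUFM, which brings aminoacyl-tRNA to the ribosome, had 142 and 131 TPM at st.21 against 105 and 69.1 TPM at st.19, with a relative change of 0.65 (0.39 to 0.90). TSFM, which recycles TUFM, had 65.5 and 60.9 TPM at st.21 against 56.0 and 37.4 TPM at st.19, with a relative change of 0.43 (0.01 to 0.85). Both factors of this pair had st.21 values above both st.19 values. GFM1, the translocase of elongation, had 25.5 and 26.4 TPM at st.21 against 44.0 and 30.2 TPM at st.19, with a relative change of −0.59 (−1.0 to −0.21). Its span overlaps LXN. GFM2, its relative that acts in ribosome recycling, had 11.2 and 11.7 TPM at st.21 and 13.0 and 9.57 TPM at st.19, with overlapping columns. The initiation factors did not separate from the median gene at this depth. MTIF2, which places the initiator tRNA, had 8.51 and 9.43 TPM at st.21 and 16.1 and 11.3 TPM at st.19 (interval −1.77 to 0.12). MTIF3 had 47.7 and 41.6 TPM at st.21 and 71.8 and 36.6 TPM at st.19 (interval −0.93 to 0.11).

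Genes of the same pathways outside the name rule were taken from lists of known function. Of 5 other mitoribosomal subunits (median 0.19) none was above 1 or below −1, against 17.3 and 9.68% of all genes. DAP3, the GTP-binding small subunit protein, had 103 and 104 TPM at st.21 against 86.7 and 59.5 TPM at st.19, with a relative change of 0.46 (0.09 to 0.81). GADD45GIP1, a large subunit protein, had 140 and 140 TPM at st.21 against 112 and 76.3 TPM at st.19, with a relative change of 0.53 (0.25 to 0.81). The intervals of AURKAIP1 (−1.10 to 0.43) and PTCD3 (−0.47 to 0.19) spanned the median gene.

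Factors that assemble the mitoribosome or modify its RNA (25 of 26 listed analysed, median 0.21) had 4 genes above 1 and 1 below −1. The shares over all genes were 17.3 and 9.68%. MTG1, a GTPase of large subunit assembly, had 41.1 and 44.0 TPM at st.21 against 21.2 and 14.2 TPM at st.19, with a relative change of 1.18 (0.76 to 1.60). RPUSD4, a pseudouridine synthase, had 42.1 and 48.2 TPM at st.21 against 20.2 and 17.4 TPM at st.19, with a relative change of 1.30 (0.74 to 1.87). LACTB2, a mitochondrial ribonuclease, had 12.3 and 10.7 TPM at st.21 against 32.9 and 21.9 TPM at st.19, with a relative change of −1.26 (−1.96 to −0.61). GTPBP10, another GTPase of large subunit assembly, had 16.1 and 17.5 TPM at st.21 against 33.9 and 25.1 TPM at st.19, with a relative change of −0.91 (−1.67 to −0.22). Genes of large subunit assembly were thus found on both sides of the median gene.

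The release, recycling and initiation partners (6 of 10 listed analysed, median −0.09) included 1 gene above 1, against 17.3% of all genes. It was MTFMT, which formylates the initiator tRNA and had an interval that spanned the median gene (−0.23 to 1.88). The release factor MTRF1 had 7.94 and 7.06 TPM at st.21 against 16.4 and 12.5 TPM at st.19, with a relative change of −0.90 (−1.90 to −0.02), and its relative MTRF1L had an interval from −0.10 to 1.59. PNPT1, an RNA-degrading enzyme, had a relative change of −0.54 (−0.98 to −0.11). PNPT1 and LETM1, also in this list, are not release, recycling or initiation factors (log2 fold changes −0.35 and −0.29). The rest of the list was MTRF1 (−0.93), MRRF (0.105), MTRF1L (0.68) and MTFMT (1.04). The list median below 0 is therefore not that of the factors alone. The list of mitochondrial aminoacyl-tRNA synthetases, which load tRNAs, also holds GATB, GATC and QRSL1, which are amidotransferase subunits. It further holds GARS1 and KARS1, which also serve the cytosol. The list had 3 genes above 1 (MARS2, TARS2 and GATC) and 1 below −1 (20 of 22 analysed, median 0.21). The shares over all genes were 17.3 and 9.68%. TARS2, for threonine, had 61.1 and 65.4 TPM at st.21 against 36.9 and 19.5 TPM at st.19, with a relative change of 0.94 (0.63 to 1.25). MARS2, for methionine, had a relative change of 1.40 (0.86 to 1.93), and its span overlaps AIFM1. FARS2, for phenylalanine, had 5 and 7 reads at st.21 against 34 and 39 reads at st.19, with a relative change of −1.51 (−3.22 to −0.15), and its span overlaps LYRM4. RARS2, for arginine, had an interval from −1.93 to 0.03.

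Of the mitochondrial transcription and RNA handling genes (16 of 18 analysed, median −0.08), POLRMT, the mitochondrial RNA polymerase, was the single gene above 1, against 17.3% of all genes. POLRMT had 33.0 and 31.4 TPM at st.21 against 19.6 and 13.0 TPM at st.19, with a relative change of 0.97 (0.62 to 1.31). LRPPRC and SLIRP form a complex that keeps mitochondrial messenger RNAs stable, and they stood on opposite sides of the median gene. LRPPRC had 58.5 and 59.3 TPM at st.21 against 113 and 79.7 TPM at st.19, with a relative change of −0.75 (−0.95 to −0.56). SLIRP had 143 and 133 TPM at st.21 against 97.1 and 69.6 TPM at st.19, with a relative change of 0.78 (0.26 to 1.29), and its span overlaps SNW1. The interval of MTERF1 spanned the median gene (−2.70 to 0.48).

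Import partners outside the rule (28 of 29 analysed, median −0.16) had 3 genes above 1 and none below −1, against 17.3 and 9.68% of all genes. MTCH2, an insertase of the outer membrane, had 158 and 163 TPM at st.21 against 75.7 and 49.2 TPM at st.19, with a relative change of 1.29 (0.93 to 1.65). PAM16, part of the import motor, had 130 and 129 TPM at st.21 against 75.0 and 51.8 TPM at st.19, with a relative change of 1.02 (0.53 to 1.50). GRPEL1, the nucleotide exchange factor of the same motor, had 29.7 and 32.2 TPM at st.21 against 62.0 and 44.6 TPM at st.19, with a relative change of −0.87 (−1.27 to −0.48). DNAJA1, a cytosolic chaperone that passes proteins to the outer membrane receptors, had 112 and 111 TPM at st.21 against 215 and 150 TPM at st.19, with a relative change of −0.74 (−0.95 to −0.54), and its span overlaps APTX.

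The order of the 100 genes by level was largely kept between the stages, while the distance between high and low genes was wider at st.21. Across genes, which are not independent replicates, the mean log2 levels of st.21 and st.19 had a Pearson's r of 0.86 and a Spearman's rho of 0.84, against 0.88 and 0.89 over all genes analysed. The SD of the log2 level over the 100 genes was 1.26 at st.21 and 0.94 at st.19, against 2.09 and 1.99 over all genes. It was 1.23 at st.21 and 0.87 at st.19 over the large subunit and 0.88 at st.21 and 0.60 at st.19 over the small subunit. The highest large subunit gene had 28.4 times the mean TPM of the lowest at st.21 and 11.2 times at st.19. For the small subunit these ratios were 12.2 at st.21 and 5.88 at st.19. Along with this, genes with a higher mean level had the larger fold changes (r = 0.50, rho = 0.48), more so than over all genes (r = 0.11, rho = 0.11). Level and fold change share the same columns, and their r follows from the SDs and the r of the stages. It is no separate result, and no test was made of these relations.

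The fold changes also went with exon length, which was read from the recovered gene lengths. All 6 genes of over 2000 to 3000 nt were below 0 (median −0.37), against 1458 of 3231 other genes of that length (median 0.10). Of the 5 genes over 3000 nt, 4 were below 0 (median −0.44), against 4197 of 7885 others (median −0.06). Among these long genes were TOMM70, GFM1, TIMM17A, TIMM44, MRPL1 and TOMM34. The 40 genes of up to 1000 nt had a median of 0.42, against 0.57 for 1057 others. In the class of over 1000 to 1500 nt the median was 0.58 for 31 genes against 0.36 for 1226 others, and in that of over 1500 to 2000 nt it was 0.34 for 18 genes against 0.21 for 1601 others. Over all 100 genes, the correlation of fold change with log2 length was weak (r = −0.25, rho = −0.20) and near that over all genes analysed (r = −0.17, rho = −0.19). Length classes were formed after the values were seen, and the last classes hold few of the 100 genes.

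**Figure D5:**
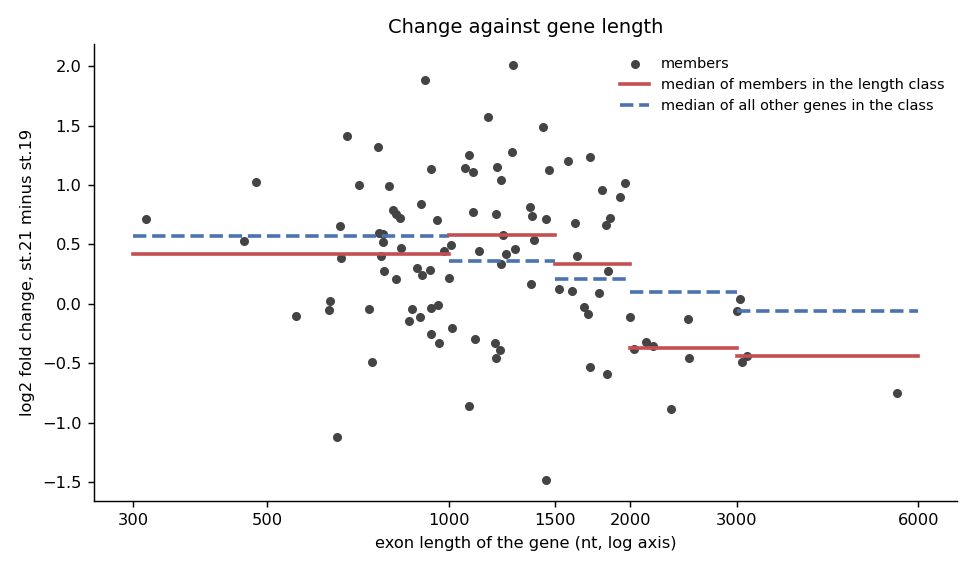
Log2 fold change (st.21 minus st.19, deposited scale) against exon length (nt, log axis) for the 100 genes, 1 point per gene. Red lines are the medians of these genes in 5 length classes (0.42, 0.58, 0.34, −0.37 and −0.44 from short to long), and dashed blue lines the medians of all other genes in the same classes (0.57, 0.36, 0.21, 0.10 and −0.06).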

How the data were processed

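RNA-seq values of 1 sample at st.21 and 1 at st.19, with 2 columns each, were analysed. Columns were matched to samples by stage and replicate number, and the names of the st.21 columns carry a further digit whose meaning is not given in the sources used here. The paper's supplement lists values of 1 sequenced sample at st.19 and 2 at st.21. Its methods describe samples sequenced at Arraystar and a further batch prepared at CSUN. Which of these the columns hold is not stated. The authors aligned reads with HISAT2 to CAS_Tse_1.0, counted them with featureCounts, filtered genes with edgeR 3.42.4 and deposited log2 TPM values that include a prior count. Whether counting used strand is not given in the sources used here. No cross-column scaling was added to the TPM values, which are compared as deposited or relative to the median gene.

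Prior counts (1.231 and 1.179 at st.21, 2.861 and 2.729 at st.19), gene lengths and whole reads were recovered from the values for 100% of genes (tolerance 0.0001 reads, lengths up to 150000 nt, 53 small RNA genes of known length as anchors), and the procedure was tested on simulated data. Intervals are exact (Clopper-Pearson, 95%) on R1 reads and cover counting error only. A fold change beyond 1 or −1 was counted as large. With 1 sample per stage no test was made. Of the 100 genes, 12 had under 20 reads in a column. Gene coordinates, overlaps and protein-coding types are from RefSeq.

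The genes and lists were chosen with earlier results of these data known. Named were all TOMM, TIMM and factor genes, of each ribosomal subunit the 4 highest and 4 lowest fold changes and the highest and lowest level, the MRPS18 paralogs, and of each pathway list up to 2 genes with the highest and 2 with the lowest fold change. MRPL9, highest of its subunit at st.19, was added after its values were seen. Alternatives were other scalings, filters, log2(TPM + 1), and leaving out each column. Python 3.11.15, numpy 2.4.6, pandas 2.3.3 and scipy 1.17.1 were used.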

Additional observations from a re-analysis of the deposited data

How the results depend on the processing

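The median relative to the median gene was positive for the 100 genes under every alternative run, and the count of genes above the median gene stayed between 64 and 65 when single columns were left out. Scaling to the TPM total of protein-coding genes moved the median of all genes to −0.47, and with it the medians to −0.12 for the 100 genes, −0.029 for the large and −0.38 for the small subunit, −0.32 for TOMM, 0.19 for TIMM and −0.61 for the factors. The pathway lists moved to −0.34 (other subunits), −0.31 (assembly), −0.62 (release), −0.32 (synthetases), −0.61 (transcription) and −0.69 (import partners), and the comparison lists to 0.55 (cytosolic ribosome), 0.078 (respiratory chain) and 0.70 (mitochondrial DNA). There 3 of the 100 genes were above 1 and 9 below −1. This scaling moves all genes of a column by the same amount. No share of all genes is given beside these counts, so they are not a result about the 100 genes. Quantile normalization gave medians relative to the median gene of 0.23 for the 100 genes, 0.0033 for the small subunit and −0.094 for TOMM. Not set against the median gene (−0.07), its medians were 0.16 for the 100 genes and −0.17 for the other subunits. On that same scale they were 0.18, 0.16 and 0.076 for the comparison lists in the order above. There 7 of the 100 genes were above 1, also without a share of all genes. With log2(TPM + 1), 1 gene was below −1. A minimum of 5 TPM gave relative medians of 0.32 for all, 0.066 for the small subunit and 0.13 for TOMM, and no filter gave 0.092 for the small subunit. The cause of the shifts under quantile normalization, log2(TPM + 1) and the other filters was not tested.

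Leaving out each column in turn gave 6 to 28 genes above 1 and 1 to 5 below −1. The 6 and the 28 came without R2 and without R1 of st.19. No share of all genes is given beside these counts, so they show only how far they depend on single columns. The relative median ranged from 0.069 to 0.096 for the small subunit, from 0.35 to 0.63 for TIMM (0.30 to 0.96 on the deposited scale) and from −0.23 to −0.057 for the factors. Of 73 named genes, 7 changed sign on the deposited scale without R1 of st.19, 1 without R2, 6 when scaled to protein-coding TPM and 1 with the effective library sizes, and 0 of these were beyond 1 or −1. Depth limits the 47 genes whose interval spans the median gene. No paired analysis was possible because no result comes from a test.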

Other observations

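The median fold change of the genes differed with the chromosome they lie on, a split chosen after the values were seen. The 28 genes on chromosomes 12 to 25 had a median log2 fold change of 0.72 and the 70 genes on chromosomes 1 to 11 a median of 0.21. All genes analysed showed the same order, with 0.32 over 4272 genes on chromosomes 12 to 25 and −0.04 over 10627 genes on chromosomes 1 to 11. On chromosome 16, which carries MRPL4, TOMM40, TIMM50, TIMM29 and TSFM, these 5 genes had a median of 0.82, against 0.79 over all 596 genes analysed there. On chromosome 24 the median was 1.21 for 4 genes, MRPL24, MRPS21, TOMM40L and MRPL9, against 0.80 over all 229 genes. These values are a description, and their cause was not tested.

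The 19 genes whose span was found to overlap another annotated gene had a median log2 fold change of −0.01, and the other 81 a median of 0.45. Among the 81 are MRPS18B and TUFM, which lie on unplaced scaffolds and whose overlaps were not checked. Named genes whose overlap is not given above include TIMM29 (with YIPF2), MRPS18C (ABRAXAS1), MTIF3 (GTF3A), MRPL11 (LOC117880766), MRPL12 (LOC117887250) and TOMM20 (LOC117875693). In the pathway lists, MTRF1L overlaps FBXO5 and PTCD3 overlaps LOC117878639, among others. Reads of these genes may not be assignable to either.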
